A study of Mus musculus with 6 samples.

Results

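The genes described here are 10 transcription factor and early response genes: the Fos family (Fos, Fosb, Fosl1 and Fosl2), the Jun family (Jun, Junb and Jund), Atf3, Egr1 and Ier3. They were taken from the deposited table by gene symbol, and all 10 were found among its 30386 genes. Expression was measured in the dorsal epidermis of mouse embryos at E18.5 by 3' digital mRNA sequencing, which reads the 3' ends of transcripts. The groups were the genotype p63alphaKO (3 libraries) and wild type (WT, 3 libraries), both at E18.5, and how the allele was made, the strain and whether each library came from a separate embryo are not stated in the material used. P-values therefore measure the spread between these libraries, which may be technical. Per the series' design text, the epidermis was peeled from the dermis after an overnight Dispase digestion in the cold, and cells were then freed with Accutase.

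AP-1 is a dimer of basic leucine zipper proteins. Fos proteins bind DNA only with a partner, usually a Jun protein, while Jun proteins can also pair with each other. The dimers bind the element TGANTCA and its longer relatives, and in epidermis they are known for driving genes of keratinocyte differentiation, of wound repair and of stress. Most of these genes are immediate early genes, transcribed within minutes of a growth factor, stress or injury signal without new protein synthesis, and tissue dissociation is a well known inducer of them.

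The promoters of the genes with a called change, Fos and Ier3, and of Jun, the most abundant of the 10, are shown because early response genes are read out from short elements next to the start site. RefSeq windows on GRCm38.p6 (the mm10 build) were used for 8 of the 10 genes. Egr1 and Fosl1 were left out of the search, which does not mean that they lack a window. Each line below holds the 250 bases before the RefSeq start, 5′ to 3′ on the gene's strand, with motif matches in capitals. The Fos window is chr12:85473640-85473889 (plus strand), the Jun window chr4:95052223-95052472 (minus strand) and the Ier3 window chr17:35821463-35821712 (plus strand). The Fos and Jun windows end at the GENCODE gene starts given further below, but the Ier3 window reaches past its own (35821684). The Jund window ends at 70697738, well before its GENCODE start of 70698949. The Atf3 and Fosl2 windows lie inside their GENCODE genes, and the Fosb and Junb windows also miss the GENCODE start.
Fos: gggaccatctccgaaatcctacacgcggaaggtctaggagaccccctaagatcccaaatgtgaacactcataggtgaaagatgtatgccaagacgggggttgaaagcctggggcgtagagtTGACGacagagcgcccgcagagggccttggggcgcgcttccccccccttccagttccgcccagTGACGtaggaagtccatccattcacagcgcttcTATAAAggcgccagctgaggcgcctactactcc
Jun: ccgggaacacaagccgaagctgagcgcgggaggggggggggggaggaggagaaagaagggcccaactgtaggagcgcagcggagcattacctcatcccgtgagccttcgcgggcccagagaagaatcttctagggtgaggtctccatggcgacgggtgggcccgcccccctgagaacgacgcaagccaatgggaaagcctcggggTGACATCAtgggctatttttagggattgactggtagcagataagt
Ier3: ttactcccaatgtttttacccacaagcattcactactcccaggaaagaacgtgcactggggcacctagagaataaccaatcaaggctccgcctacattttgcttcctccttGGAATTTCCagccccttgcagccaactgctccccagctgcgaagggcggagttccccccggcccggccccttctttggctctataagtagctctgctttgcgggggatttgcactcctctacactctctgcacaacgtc
The Fos window held TGACG, the core of the cyclic AMP response element, at 129 to 125 and at 66 to 62 bases before the start, and a TATAAA box at 33 to 28 bases. The Jun window held TGACATCA, a match to TGANNTCA, at 45 to 38 bases. The Ier3 window held GGAATTTCC, a form of the NF-κB site, at 139 to 131 bases. Both strands were searched, no matches overlapped in these windows, and the motifs were picked with the sequences in view. Over 32851 RefSeq windows of the same length, TGACG was found in 17.8%, TGANNTCA in 11.9%, TATAAA in 12.4% and GGAATTTCC in 0.286%. TGACG was found in 4 of the 8 windows (Fos, Fosb, Junb and Atf3) and TGANNTCA in 2 (Jun and Jund). The AP-1 element TGANTCA (6.75% of all windows) and the CArG box bound by serum response factor (1.47%) had no match in these 250 bases of the 8 windows. Bases further upstream, and the promoters of Egr1 and Fosl1, were not searched, so absence of these sites from the genes cannot be read from this.

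Depth was 3350442 to 3539604 reads in p63alphaKO libraries and 2564407 to 4474764 reads in WT libraries. The targeted gene, Trp63, had 143, 146 and 136 CPM (read counts scaled to a common library total) in p63alphaKO libraries, against 63.9, 71.7 and 87.2 CPM in WT libraries. These 3' reads are summed per gene and the material used does not state which part is deleted, so loss of the alpha isoforms cannot be read from this level. Of 7464 genes tested by limma, 123 (1.65%) passed an adjusted p of 0.05 (Benjamini-Hochberg), 35 (0.469%) higher and 88 (1.18%) lower in p63alphaKO. The lower share of the calls was 71.5%, and 58.0% or 48.1% after TMM or upper quartile rescaling, while the median over tested genes stood at -0.085 (log2), and at 0.018 or 0.048 after rescaling.

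In p63alphaKO epidermis Fos fell and Ier3 rose, and the other 8 genes did not pass the test. All 10 genes were tested, and 8 had positive and 2 negative log2 fold changes, with a median of 0.18, while among all tested genes 3002 were positive and 4462 negative. The 2 calls among 10 genes stand beside 1.65% called over all tested genes. The set was chosen with earlier results of these data known, so the 2 shares are no measure of enrichment. Groups without overlap were seen for 4 of the 10, Fosl1, Fosl2 and Ier3 on the higher side and Fos on the lower, beside 21.0% of all tested genes (7.6% higher, 13.4% lower). The direction of the set as a whole rested on WT replicate 3. It was the lowest of the WT libraries for 9 of the 10 genes and the lowest of all 6 libraries for 7. Without it, 5 of the 10 fold changes were positive and the median was -0.033, while Fos and Ier3 were still called. In bulk tissue, fewer cells of a type and less RNA per cell cannot be told apart. Every log2 fold change compares p63alphaKO with WT as log2(CPM + 1) values and is positive where p63alphaKO is higher, and SE stands for its standard error.

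**Figure D1:**
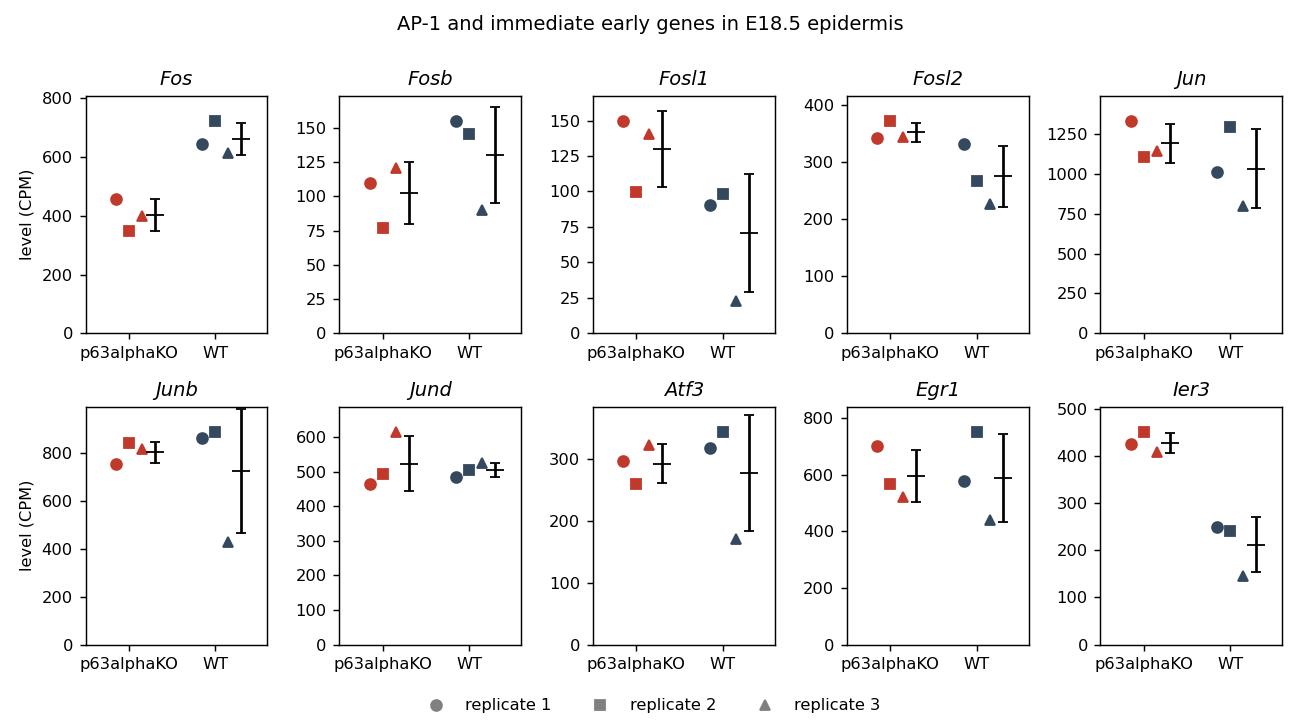
Level of each of the 10 genes in CPM (linear axis from 0) in the 3 p63alphaKO libraries (red) and the 3 WT libraries (dark), with marker shape for the replicate and the mean ± SD beside each group. Fos is lower in every p63alphaKO library than in every WT library, Ier3, Fosl1 and Fosl2 are higher, and WT replicate 3 lies lowest of the WT libraries in 9 of the 10 panels.

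Fos encodes c-Fos, the founding member of its family and a strong activator in dimers with Jun (chromosome 12, 85473890 to 85477273, plus strand, mm10). It had 457, 349.7 and 398 CPM in p63alphaKO replicates 1, 2 and 3, against 645, 723 and 615 CPM in WT replicates 1, 2 and 3. The groups were apart, with the highest p63alphaKO library below the lowest WT library. Fos fell by 0.72 on the log2 scale (SE 0.16, limma adjusted p = 0.0335), which is 1.65-fold lower in p63alphaKO, with means of 402 ± 53.9 CPM in p63alphaKO and 661 ± 55.4 CPM in WT (SD, n = 3 each). Relative to the median of all tested genes the difference was -0.64. These levels rested on 1201 to 3237 reads per library, a counting error of at most 2.89%. Leaving out p63alphaKO replicate 1, 2 or 3 or WT replicate 2 ended the call (adjusted p = 0.0762, 0.175, 0.165 and 0.0817), with values between -0.82 and -0.63. It also ended with no filter, a minimum mean of 50 CPM, TMM or upper quartile factors, edgeR's quasi-likelihood test or limma without its trend (adjusted p from 0.0568 to 0.153), at values of -0.72 to -0.59.

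The other early Fos gene, Fosb (chromosome 7, 19302696 to 19310051, minus strand), overlapped between the groups. Fosb also encodes an activator and is known to be induced with Fos. It had 109.5, 76.9 and 121 CPM in p63alphaKO libraries, against 155, 146 and 90.4 CPM in WT libraries. The log2 fold change was -0.33 (SE 0.24, adjusted p = 0.554) with a 95% interval of -0.84 to 0.17. WT replicate 3 lay inside the p63alphaKO range, and without it the value was -0.57.

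Fosl1 and Fosl2, encoding Fra-1 and Fra-2, which lack the strong activation domain of c-Fos, had positive values that did not pass the test. Fosl2 (chromosome 5, 32135801 to 32157842, plus strand) had 343, 372 and 343 CPM in p63alphaKO libraries, against 332, 267 and 226 CPM in WT libraries. The groups did not overlap, but the gap between the lowest p63alphaKO and the highest WT library was small beside the WT range. Its log2 fold change was 0.38 (SE 0.17, adjusted p = 0.308, 95% interval 0.01 to 0.74). Fosl1 (chromosome 19, 5447547 to 5455946, plus strand) had 149.6, 99.6 and 140.5 CPM in p63alphaKO libraries, against 90.4, 98.3 and 22.7 CPM in WT libraries. The lowest p63alphaKO library was level with the highest WT library, and WT replicate 3, with 72 reads and a counting error of 11.8%, stood far below the rest. The log2 fold change of Fosl1 was 1.11 (SE 0.41, adjusted p = 0.199, 95% interval 0.24 to 1.97), and 0.44 without WT replicate 3. Exons of Fosl1 overlap Ccdc85b on the other strand, and the labels and notes do not say whether reads were counted by strand.

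The makeup of the Fos family differed between the groups while its total overlapped. Reads come from the 3' end of each transcript and so do not scale with transcript length, which allows CPM values of the members to be summed and set beside each other, as far as their 3' ends were captured alike. The Fos family summed to 1059, 898 and 1003 CPM in p63alphaKO libraries, against 1222, 1233 and 955 CPM in WT libraries. Fos itself made up 43.2%, 38.9% and 39.7% of that sum in p63alphaKO libraries, against 52.8%, 58.6% and 64.5% in WT libraries. Fosl2 made up 36.0% ± 4.78 in p63alphaKO and 24.2% ± 2.78 in WT, and Fosl1 13.1% ± 1.72 in p63alphaKO and 5.91% ± 3.08 in WT (SD, n = 3 each). The groups were apart for these 3 shares, but so were the levels of the 3 genes themselves. Shares of a sum are also linked, so a lower share of Fos means a higher share for the rest. The Fosl1 share was 7.4%, 7.97% and 2.37% in WT replicates 1, 2 and 3. The share of Fosb overlapped, at 10.3% ± 1.76 in p63alphaKO and 11.3% ± 1.67 in WT. These shares were computed after the values of the members were seen and carry no test.

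The Jun family did not differ beyond its spread. Jun, the main partner of Fos and the most abundant of the 10 genes (chromosome 4, 95049034 to 95052222, minus strand), had 1333, 1105 and 1142 CPM in p63alphaKO libraries, against 1011, 1293 and 797 CPM in WT libraries. The ranges overlapped, and the log2 fold change was 0.23 (SE 0.18, adjusted p = 0.593, 95% interval -0.15 to 0.61). Junb, which can restrain Jun activity (chromosome 8, 84974484 to 84978718, minus strand), had 756, 842 and 816 CPM in p63alphaKO libraries, against 862, 888 and 429 CPM in WT libraries. Every p63alphaKO library was below WT replicates 1 and 2 and above WT replicate 3, and the log2 fold change of 0.22 (SE 0.23, adjusted p = 0.708, 95% interval -0.27 to 0.71) was -0.12 without WT replicate 3. Jund, a member with steadier expression than Jun or Junb in many cells (chromosome 8, 70698949 to 70700616, plus strand), had 464, 493 and 615 CPM in p63alphaKO libraries, against 484, 504 and 526 CPM in WT libraries. The WT libraries lay within the p63alphaKO range, and the log2 fold change came to 0.044 (SE 0.16, adjusted p = 0.935, 95% interval -0.29 to 0.38). Summed over the family, the level was 2522 ± 71.1 CPM in p63alphaKO and 2265 ± 473 CPM in WT. Jun, Junb and Jund have exons that overlap Junos, Prdx2 and Gm11175 on the other strand, so their values are uncertain where counting did not use it, whereas Fos and Ier3 have no such overlap in the annotation.

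Ratios within a library do not depend on how libraries are scaled, and by this measure Fos differed relative to Jun, Junb and Egr1. The ratio of Fos to Jun was 0.343, 0.317 and 0.349 in p63alphaKO libraries, against 0.638, 0.559 and 0.772 in WT libraries. The ratio of Fos to Junb was 0.605, 0.415 and 0.488 in p63alphaKO libraries, against 0.748, 0.814 and 1.44 in WT libraries. For Fos to Egr1 it was 0.654, 0.618 and 0.765 in p63alphaKO libraries, against 1.11, 0.965 and 1.40 in WT libraries. None of these ratios overlapped between the groups, but they share Fos as numerator, which was itself apart. Each was highest in WT replicate 3, where Jun, Junb and Egr1 were at their lowest. The ratio of the summed Fos family to the summed Jun family was likewise lower, at 0.391 ± 0.0235 in p63alphaKO and 0.508 ± 0.0437 in WT. The ratio of Fos to Fosb did overlap, at 4.18, 4.55 and 3.29 in p63alphaKO libraries, against 4.16, 4.96 and 6.81 in WT libraries. So did Dusp1, an early gene, to Fos, at 0.596, 0.598 and 0.742 in p63alphaKO libraries, against 0.479, 0.638 and 0.46 in WT libraries. Hspa1b, a heat shock gene, to Fos also overlapped, at 0.28, 0.311 and 0.313 in p63alphaKO libraries, against 0.288, 0.34 and 0.522 in WT libraries. Ier2, another early gene, to Fos was apart, at 0.261 ± 0.0427 in p63alphaKO and 0.155 ± 0.0274 in WT. The ratio of Fosl2 to Fos was 0.749, 1.06 and 0.862 in p63alphaKO libraries, against 0.514, 0.369 and 0.367 in WT libraries. These ratios were chosen after the values were seen and carry no test.

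**Figure D2:**
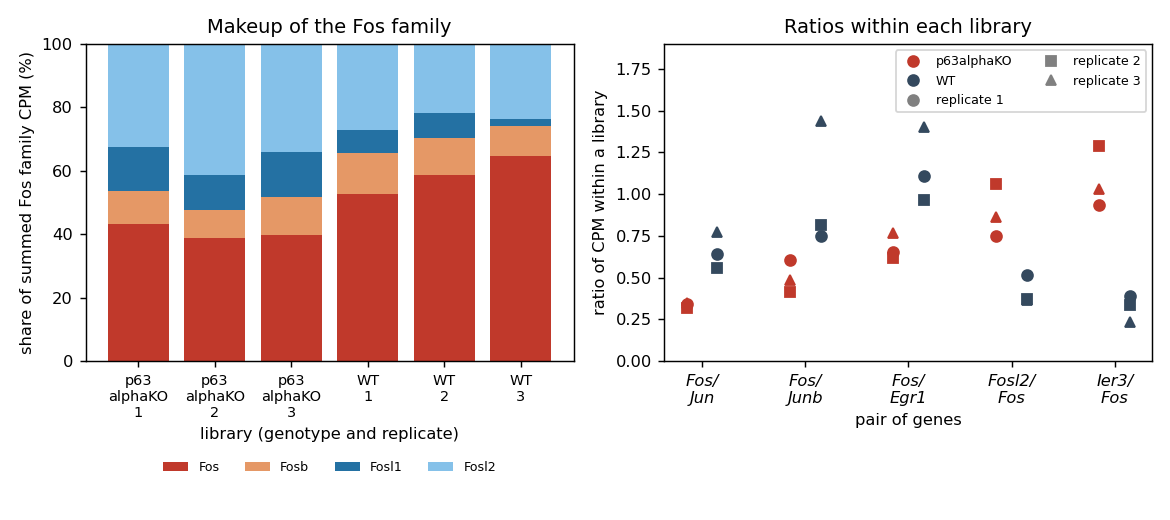
Left, share of Fos, Fosb, Fosl1 and Fosl2 in the summed CPM of the Fos family in each library (percent, stacked to 100). Right, ratio of the CPM of 2 genes within each library for 5 pairs, p63alphaKO in red left of WT in dark, marker shape for the replicate. Fos holds 38.9% to 43.2% of the family in p63alphaKO libraries and 52.8% to 64.5% in WT libraries, and the 5 ratios do not overlap between the groups.

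Atf3, a stress-induced factor that pairs with Jun proteins and often represses, overlapped between the groups. Atf3 (chromosome 1, 191170296 to 191218039, minus strand) had 296, 259.8 and 322 CPM in p63alphaKO libraries, against 318, 343 and 171 CPM in WT libraries. The p63alphaKO values lay inside the WT range, and the log2 fold change was 0.14 (SE 0.23, adjusted p = 0.836, 95% interval -0.35 to 0.63), and -0.18 without WT replicate 3.

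Egr1, a zinc finger factor outside AP-1 that responds to many of the same signals as Fos, likewise overlapped. Egr1 (chromosome 18, 34859823 to 34864984, plus strand) had 699, 566 and 521 CPM in p63alphaKO libraries, against 579, 749 and 438 CPM in WT libraries. The p63alphaKO range lay inside the WT range, and the log2 fold change came to 0.039 (SE 0.20, adjusted p = 0.957, 95% interval -0.38 to 0.46).

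Ier3 encodes IEX-1, an early response protein with roles in cell survival that is known as a target of NF-κB and of ERK signalling (chromosome 17, 35821684 to 35822923, plus strand). It had 427, 451 and 409 CPM in p63alphaKO libraries, against 250.2, 241 and 145 CPM in WT libraries. Every p63alphaKO library lay above every WT library. Ier3 rose by 1.05 on the log2 scale (SE 0.20, limma adjusted p = 0.0159), which is 2.07-fold, with means of 429 ± 21.3 CPM in p63alphaKO and 212 ± 58.0 CPM in WT (SD, n = 3 each). Relative to the median of all tested genes the difference was 1.14. Within each library, the ratio of Ier3 to Junb was 0.565, 0.535 and 0.501 in p63alphaKO, against 0.290, 0.272 and 0.339 in WT. This ratio was chosen after the values were seen and carries no test, and Ier3 was itself apart. The log2 fold change of Ier3 was 0.80 without WT replicate 3 (adjusted p = 0.0138). The call ended without p63alphaKO replicate 1, 2 or 3 (adjusted p = 0.0798, 0.0744 and 0.0854, values 1.01 to 1.09) and with limma without its trend (0.122).

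**Figure D3:**
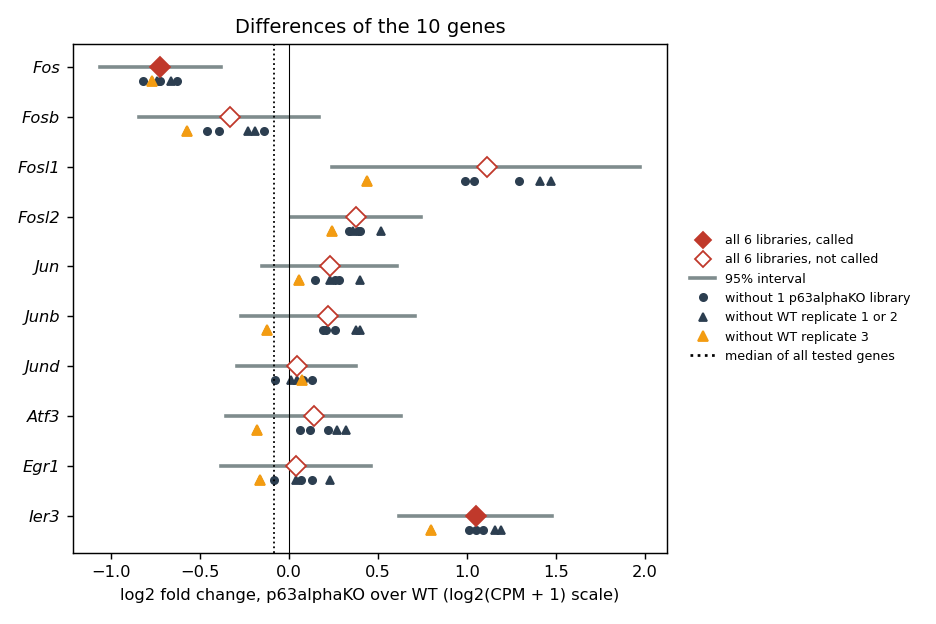
Log2 fold change of each gene, p63alphaKO over WT as log2(CPM + 1), from all 6 libraries (diamonds, filled where called) with its 95% interval (bar), and with 1 library left out (small markers below). Only Fos (-0.72) and Ier3 (1.05) are called, and without WT replicate 3 (orange) the values of Junb, Atf3 and Egr1 turn negative.

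The order of the 10 levels changed around Fos and Ier3. In p63alphaKO the order of mean levels was Jun, Junb, Egr1, Jund, Ier3, Fos, Fosl2, Atf3, Fosl1 and Fosb, and in WT it was Jun, Junb, Fos, Egr1, Jund, Atf3, Fosl2, Ier3, Fosb and Fosl1. Fos was thus the sixth in p63alphaKO and the third in WT, and Ier3 the fifth in p63alphaKO and the eighth in WT. In p63alphaKO the ranges of 4 of the 9 neighbouring pairs overlapped (Egr1 and Jund, Ier3 and Fos, Fos and Fosl2, and Fosl1 and Fosb), and the other 5 pairs were apart. In WT 8 of the 9 pairs overlapped, all but Jund and Atf3. Fos was below Jund in all 3 p63alphaKO libraries and above it in all 3 WT libraries. In p63alphaKO replicate 1, though, Fos and Jund were nearly level, at 457 and 464 CPM.

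The spread within the groups depended on WT replicate 3. The coefficient of variation was smaller in p63alphaKO for 8 of the 10 genes, with a median of 12.1% in p63alphaKO and 26.6% in WT. Over all tested genes the medians were 16.8% in p63alphaKO and 21.2% in WT, and 60.6% of genes varied less in p63alphaKO. Without WT replicate 3 the median for the 10 genes was 12.1% in p63alphaKO and 5.64% in WT, with 3 of 10 smaller in p63alphaKO, and over all tested genes the medians were 16.8% in p63alphaKO and 16.6% in WT. The WT values then come from 2 libraries and those of p63alphaKO from 3. The library left out was the lowest in WT for 9 of the 10 genes, so a smaller WT spread follows in part from its removal. The all-gene order also turned without WT replicate 1, at 16.8% in p63alphaKO and 15.8% in WT. With all 6 libraries, the 2 of the 10 genes with the larger value in p63alphaKO were Fos, at 13.4% in p63alphaKO and 8.39% in WT, and Jund, at 15.3% in p63alphaKO and 4.17% in WT. The log2 range over the 6 libraries was widest for Fosl1, at 2.67, and narrowest for Jund, at 0.41.

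**Figure D4:**
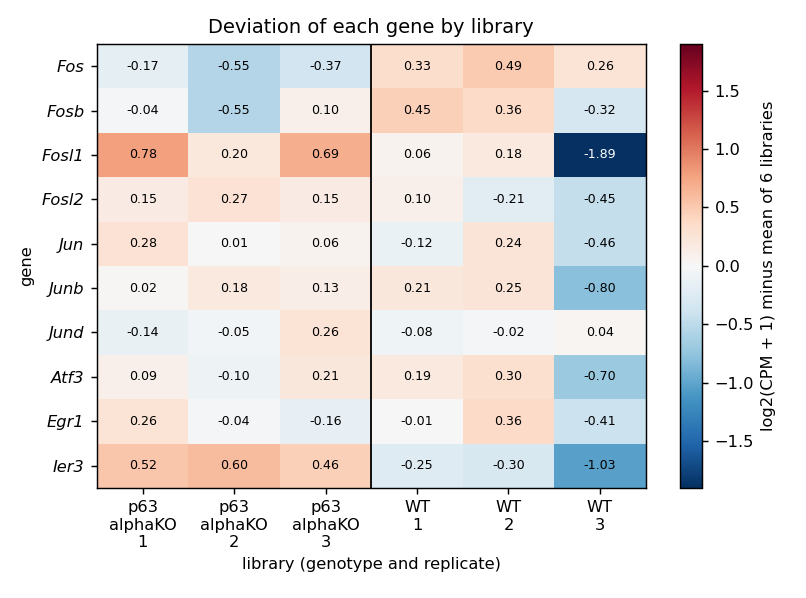
Deviation of log2(CPM + 1) from the mean of the 6 libraries for each gene (rows) and library (columns, p63alphaKO replicates left of the line, WT replicates right of it), red above and blue below the mean. WT replicate 3 is the lowest library for 7 of the 10 genes, down to -1.89 for Fosl1, while Fos there is at 0.26.

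Profiles over the 6 libraries were compared by the root mean square difference of centred log2(CPM + 1) values, as a description over 6 libraries. Among the other 9 genes, Fosb was nearest to Fos (0.316) and Egr1 nearest to Jun (0.116), while Fos and Jun were 0.497 apart and Fos and Ier3 0.922. Outside the set, 7454 genes were compared. Those nearest to Fos were Vwa2 (0.082), Rpe (0.098), Cpt2 (0.107), Zcchc8 (0.109) and Fzd6 (0.112), a receptor of Wnt ligands. All 5 had means below 30 CPM in both groups and none was called. Those nearest to Jun were Dennd2c (0.059), Glrx3 (0.060), Crtc3 (0.071), Arf6 (0.078) and Elmod1 (0.079), also without a call.

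Other immediate early genes showed no called change. Of 35 genes listed 31 were tested, with 22 positive and 9 negative values, a median log2 fold change of 0.12 and 0 calls by limma, where 5 had an unadjusted p under 0.05. The edgeR test called 0 of them and DESeq2 called 1, Gadd45a. Gadd45a, a growth arrest and DNA damage gene, had 28.8, 23.9 and 35.8 CPM in p63alphaKO libraries, against 9.74, 20.3 and 11.96 CPM in WT libraries. The groups did not overlap, but its log2 fold change of 1.07 did not pass the test (adjusted p = 0.106), and its exons overlap E230016M11Rik on the other strand. Egr2, related to Egr1, had a value of 0.82 (adjusted p = 0.204), Nfkbia, the NF-κB inhibitor and itself an NF-κB target, 0.68 (0.297), and Klf2 -0.83 (0.385). Summed over the list, the level was 9321, 8762 and 8896 CPM in p63alphaKO libraries, against 8676, 8931 and 5566 CPM in WT libraries. WT replicate 3 was the low library, and without it the median of the list was -0.13, with 14 positive values.

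Genes that encode other zipper partners or act upstream of AP-1 had 0 calls as well, by limma, edgeR and DESeq2. Of 13 other AP-1 zipper partners 7 were tested, with 4 positive values and a median of 0.11, and 2 had an unadjusted p under 0.05 by limma. Maff, a small Maf factor without an activation domain, had a value of 0.86 (adjusted p = 0.237). Mafg stood at 0.42 (adjusted p = 0.396) and Atf7 at 0.37 (0.603). Of 19 kinases and factors upstream of AP-1 15 were tested, with 10 positive values and a median of 0.062, and 1 had an unadjusted p under 0.05. That gene was Map2k3, a kinase that activates p38, which had 519, 536 and 476 CPM in p63alphaKO libraries, against 395, 401 and 229 CPM in WT libraries. Its groups did not overlap and its log2 fold change was 0.62 (adjusted p = 0.138). Srf, encoding the factor that binds CArG boxes, had a value of 0.67 (adjusted p = 0.320), Map2k7 one of -0.50 (0.390) and Rps6ka1 one of -0.42 (0.653).

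Among genes known in keratinocytes as AP-1 targets, the stress keratins Krt6a and Krt6b rose. Of 22 listed genes 14 were tested, 10 with positive values, and the median log2 fold change was 0.60, with 2 called higher and 0 lower by limma. By limma 9 had an unadjusted p under 0.05, and of these Cd44 (-0.61) and the cyclin gene Ccnd1 (-0.67) had negative values. With edgeR 1 was called higher and with DESeq2 3. Krt6a had 70.0, 125.8 and 119 CPM in p63alphaKO libraries, against 33.9, 58.5 and 26.5 CPM in WT libraries (log2 fold change 1.41, limma adjusted p = 0.0249). Krt6b had 125, 188 and 205 CPM in p63alphaKO libraries, against 52.6, 108 and 40.0 CPM in WT libraries (1.45, adjusted p = 0.0257). Both keratins were apart between the groups, but they are near-identical copies with antisense neighbours, and both calls ended without p63alphaKO replicate 2 or 3 or WT replicate 1 (adjusted p from 0.0528 to 0.196). Krt6b was also not called by edgeR (0.0615), nor either keratin at a minimum mean of 50 CPM (0.0563 each) or by limma without its trend. The envelope precursors Sprr1b and Sprr1a differed by 1.64 (adjusted p = 0.0959) and 1.41 (0.157), and the cytokine gene Il1a by 1.45 (0.0669). WT replicate 3 was again low, and without it the median of the list was 0.23, with 11 positive values and 3 called higher. Other members of the same list did not have positive values of that size, among them Ivl at 0.038 (adjusted p = 0.944) and Lor at 0.21 (0.590), both classical AP-1 targets of the upper epidermis, and the hyaluronan receptor gene Cd44 at -0.61 (0.0669).

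Heat shock genes, which tissue handling can induce together with Fos and Jun, included 2 that fell. All 10 listed genes were tested, 1 with a positive value, and the median log2 fold change was -0.26. Hspa1b, an inducible HSP70 gene, had 128, 109 and 125 CPM in p63alphaKO libraries, against 186, 246 and 321 CPM in WT libraries (log2 fold change -1.02, limma adjusted p = 0.0192). Its near-identical copy Hspa1a had 91.2, 95.8 and 77.3 CPM in p63alphaKO libraries, against 136, 153 and 227 CPM in WT libraries (-0.93, adjusted p = 0.0412). Both were apart between the groups and highest in WT replicate 3, where 9 of the 10 early genes were at their WT minimum. Hspa8 stood at -0.69 (adjusted p = 0.112) and Hspe1 at -0.30 (0.552). The Hspa1b call ended without p63alphaKO replicate 1, 2 or 3 (adjusted p from 0.0762 to 0.0927) and that of Hspa1a without any library but WT replicate 1 (0.0533 to 0.208). The Hspa1a call also ended with no filter, a minimum mean of 50 CPM, TMM or upper quartile factors or edgeR (0.0523 to 0.0585), and both calls ended by limma without its trend (0.122 for Hspa1b and 0.139 for Hspa1a). How the handling of the tissue bears on these differences was not tested.

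**Figure D5:**
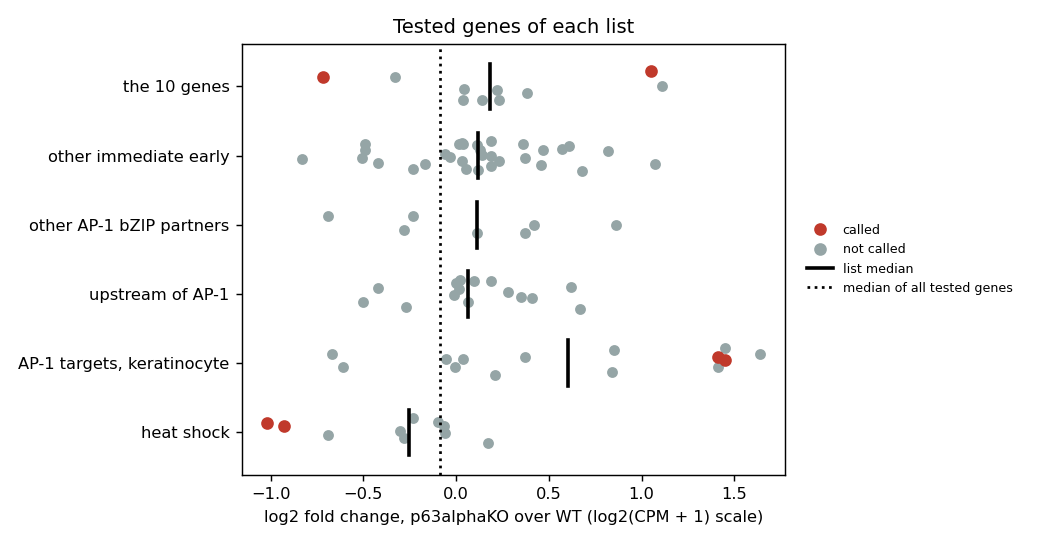
Log2 fold change (p63alphaKO over WT, log2(CPM + 1) scale) of each tested gene in the set of 10 and in 5 related lists, red where called, with the median of each list (black bar) and the median of all tested genes (dotted line, -0.085). Called genes are Fos and Ier3 in the set, Krt6a and Krt6b among AP-1 targets and Hspa1a and Hspa1b among heat shock genes.

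Markers of dermis and muscle also fell in p63alphaKO epidermis, while calls for blood markers depended on the method. Fibroblast and dermis markers summed to 314, 593 and 249.6 CPM in p63alphaKO libraries, against 4782, 2067 and 3291 CPM in WT libraries. Of 9 tested members 8 were called lower, among them Col1a1 and Col1a2 (log2 fold changes -4.11 and -3.70, adjusted p = 0.000219 each). With any 1 library left out 5 to 8 were called lower, and at a minimum mean of 50 CPM all 4 of those tested were. Skeletal muscle markers summed to 50, 87.9 and 76.9 CPM in p63alphaKO libraries, against 388, 2552 and 377 CPM in WT libraries, with 5 of 7 tested members called lower, among them Ttn and Tnnt3 (-3.68 and -2.91, adjusted p = 0.00629 and 0.0480), and 2 of 7 without p63alphaKO replicate 1 or 3 and 1 by limma without its trend. Erythroid markers summed to 559, 852 and 1766 CPM in p63alphaKO libraries, against 3440.2, 1903 and 2540 CPM in WT libraries, with 3 of 4 tested members called lower, but 0 by edgeR or DESeq2 (4 and 2 with an unadjusted p under 0.05), with TMM or upper quartile factors, at a minimum mean of 50 CPM, by limma without its trend, or without p63alphaKO replicate 1 or 2 or WT replicate 1, and 1 with no filter. Hbb-bs stood at -1.51 (adjusted p = 0.0314) and Hba-a1 at -1.27 (0.0505). Within the WT group Fos was highest in replicate 2, which had the lowest fibroblast and erythroid sums and the highest muscle sum. The part of these cells in the Fos and Ier3 values was not tested.

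Endothelial markers summed to at most 4.95 CPM in p63alphaKO libraries and at most 40.1 CPM in WT libraries, and immune markers to 8.94 to 21 CPM in p63alphaKO libraries and 15.6 to 30.2 CPM in WT libraries. None of their 14 genes reached the minimum for testing, and the T cell gene Cd3e was at 0 in all 6 libraries. Melanocyte markers summed to 321 to 455 CPM in p63alphaKO libraries and 194 to 310.4 CPM in WT libraries, with 0 of 3 tested members called by limma and by edgeR, 1 with an unadjusted p under 0.05, and Dct alone called by DESeq2. Dct stood at 0.76 (adjusted p = 0.0978) and Pmel at 0.29 (0.634). Keratinocyte markers, the defining genes of the labelled tissue, were among the most abundant genes and summed to 113036 to 120123 CPM in p63alphaKO libraries and 114223 to 122075 CPM in WT libraries. Of these 10 genes 0 were called by limma, edgeR or DESeq2 and 0 had an unadjusted p under 0.05, with Krt10 and Krt1 at -0.10 and -0.011 (adjusted p = 0.871 and 0.989).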

How the data were processed

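The deposited table gives CPM (read counts scaled by the authors to a common library total) per gene for 6 libraries. Reads were handled with STAR and HTSeq on mm10, per the submitters' processing notes, which give no role, version or annotation. The design text and the labels name different RNA kits. Whole reads could be recovered from every CPM value (tolerance 0.0055 CPM), and gave 2564407 to 4474764 reads per library. At these depths 3 reads equal 0.67 to 1.169 CPM.

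Groups followed the labels. The 7464 genes averaging 10 CPM or more were tested on log2(CPM + 1) with limma 3.58.1 (R 4.3.3, trended variance, p63alphaKO over WT, both groups, no covariate), with Benjamini-Hochberg adjustment over all tested genes and a threshold of 0.05. On recovered reads, edgeR 4.0.16 and DESeq2 1.42.0 were run as alternatives, beside other pseudocounts, filters and factors, a replicate block and leaving out each library. The limma step was tested on simulated data. Gene positions come from GENCODE M21. In the related lists the genes named are those called and up to 4 with the largest change, of which 1 is not reported here. Ivl, Lor, Cd44, Ccnd1, Dusp1 and Ier2 were named after their values were seen. Profiles were compared for Fos and Jun, with the 5 nearest genes named. The members and lists were chosen with earlier results of these data known.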

Additional observations from a re-analysis of the deposited data

How the results depend on the processing

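Fos kept its negative and Ier3 its positive sign under all 17 alternatives run, while the Fos call held in 6 of them (value -0.82 to -0.59, adjusted p 0.0226 to 0.175) and the Ier3 call in 13 (0.80 to 1.19, adjusted p 0.000361 to 0.122). Both were called with a pseudocount of 0.5 or 5, a minimum mean of 1 CPM and DESeq2. Only 1 of the 10 genes, Ier3, was called with no filter, a minimum mean of 50 CPM, TMM factors, upper quartile factors or edgeR, and 0 with limma without its trend, where 2 had an unadjusted p under 0.05. With 1 library left out, 0 to 2 of the 10 were called. Over all genes, the 123 calls became 256 at a minimum mean of 1 CPM, 36 at 50 CPM, 317 with DESeq2, 41 without the trend and 37 to 186 with 1 library left out. With 1 library left out, Junb ranged from -0.12 to 0.40, Jund from -0.077 to 0.13, Atf3 from -0.18 to 0.32 and Egr1 from -0.16 to 0.23. Signs turned for Egr1 without p63alphaKO replicate 1 (-0.083), Jund without p63alphaKO replicate 3 (-0.077), and Junb (-0.12), Atf3 (-0.18) and Egr1 (-0.16) without WT replicate 3. The cause was not tested.

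With a replicate block, 127 genes were called over all and 1 of the 10 genes, Ier3, while Fos (-0.72, adjusted p = 0.0567) and Hspa1a (-0.93, 0.0569) were not called. Deviations of same-numbered libraries correlated at -0.023, 0.066 and -0.108 for numbers 1, 2 and 3, and not every library correlated best with its own number. Deviations from a mean of 3 libraries sum to 0 within a group, so these correlations cannot decide whether libraries were paired. The labels do not say whether equal numbers mark a pair.

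With 3 libraries a group, the 95% intervals of the 8 genes without a call reach at least 0.38 on 1 side of 0 on the log2 scale, so differences of that size lie within them. Counting error is at most 11.8% (Fosl1) and covers neither the spread between embryos nor handling.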
